A study of Mus musculus with 6 samples.

Results

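The nuclear genes of oxidative phosphorylation were followed in RNA from pieces of mouse spleen. The set holds the protein-coding genes named Sdha, Sdhb, Sdhc or Sdhd, together with those whose symbol begins Ndufa, Ndufb, Ndufc, Ndufs, Ndufv, Uqcr, Cox4 to Cox8 or Atp5, without the Ndufaf assembly factors. This rule took 84 of the 31771 genes in the count table, 38 for complex I, 4 for complex II, 8 for complex III, 17 for complex IV and 17 for complex V. The annotation holds 2 further genes under the rule, Cox7b2 and a duplicate identifier of Atp5o, which were not analysed here. The genes encoded in mitochondrial DNA were not analysed here either.

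Oxidative phosphorylation couples electron transport along the inner mitochondrial membrane to ATP synthesis. Complexes I and II pass electrons from NADH and succinate to ubiquinone, complex III hands them to cytochrome c, complex IV delivers them to oxygen, and complex V, the ATP synthase, uses the resulting proton gradient to make ATP. The complexes contain subunits from both nuclear and mitochondrial DNA, apart from complex II, whose subunits are all nuclear. Resting lymphocytes, dividing blood precursors and red cells that have lost their mitochondria share the spleen and differ widely in respiratory capacity.

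RNA sequencing of 6 libraries compared 3 mutant with 3 wild-type (WT) spleens of strain C57BL/6 and was meant to describe their cell composition. The mutants carried VEC-Cre, an SB Transposase and onc2, that is, Cre recombinase driven by the VE-cadherin promoter, the Sleeping Beauty transposase and a transposon that can activate or disrupt the genes it lands in. VE-cadherin marks endothelium, and Cre under its promoter also acts in blood cells that descend from embryonic endothelium, so that the altered cells are not limited to vessels. The WT genotype carries none of the 3 alleles in the labels, and no Cre-only or transposon-only group was analysed here. The sources used here give neither age nor litter. Transcripts of Cre, of the transposase and of the transposon were not analysed here.

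Libraries held 72902118 to 79258116 counts. Levels are CPM, counts relative to the total of their library, given for mutants 1, 2 and 3 and then for WT 1, 2 and 3. Sex differed between the groups. Xist, which coats the silent X of females, was at 1513, 580 and 0.586 CPM in mutants and at 0.423 to 0.663 CPM in WT. Y-linked Ddx3y was at 0.0412, 0.0269 and 60.4 CPM in mutants and at 55.0 to 62.7 CPM in WT. The mutants also varied more, with a biological coefficient of variation of 72.7% in mutants and 17.1% in WT. All 8 B-cell markers were lower, summing to 40.2 to 93.8 CPM in mutants and 5253 to 5905 CPM in WT, and 2 of 8 T-cell markers were lower, at 14.0 to 265 CPM in mutants and 634 to 749 CPM in WT. Most of the T-cell sum of mutant 2 was Cd4, at 197 CPM against 85.0 to 107 CPM in WT. In the other 7 T-cell markers every mutant lay below every WT library. In the stroma and endothelium list 5 of 8 fell, at 351 to 468 CPM in mutants and 1055 to 1228 CPM in WT. Its endothelial genes were mixed, with Pecam1 lower. Stab2 was at 138, 120 and 152 CPM in mutants and 83.8, 106 and 94.1 CPM in WT. Neither Stab2 nor Cdh5, given below, passed. Cell cycle genes were higher in 10 of 12 cases, at 2708 to 4662 CPM in mutants and 798 to 1264 CPM in WT. Granulocyte markers were higher in 3 of 10, at 558 to 2480 CPM in mutants and 228 to 390 CPM in WT. Most of that sum in mutant 1 was Prtn3, at 416 CPM. Camp, Ltf, Ngp, S100a8, S100a9 and Ly6g of mutant 1 lay below every WT library, with Camp at 2.39 CPM against 23.1 to 38.2 CPM. By the test used below, 5.08% of all tested genes rose and 6.90% fell. Of 10 erythroid markers 0 passed, at 3544 to 60364 CPM in mutants and 71184 to 112035 CPM in WT, and no marker of these lists was at 0 in all mutants. What part these markers, or sex, had in the results on respiratory genes was not tested. In bulk tissue, fewer cells of a type and less RNA per cell cannot be told apart. The labels name 6 animals without saying how they were raised, so p-values measure the spread between these libraries.

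Respiratory transcripts were more abundant in all 3 mutant spleens, in every complex. The 84 genes together held 11653, 9464 and 12208 CPM in mutants and 7453, 7571 and 7523 CPM in WT, 11108 ± 1451 CPM against 7516 ± 58.9 CPM (SD, n = 3 each) or 1.48-fold. Every mutant library lay above every WT library in this sum. Mutant 3 was the highest of the 3 in this sum, while mutant 1 was the highest in complexes I and IV. Without haemoglobin and immunoglobulin genes in the library totals, the log2 ratio of the summed level stayed above 0 in each complex, between 0.25 in complex II and 0.51 in complex V. Haemoglobin genes took 0.614, 5.39 and 0.161% of counts in mutants and 11.0, 10.4 and 6.98% in WT.

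By complex, the sums kept the same order of groups. Complex V, the ATP synthase, reached 4045, 3327 and 4692 CPM in mutants and 2512, 2519 and 2542 CPM in WT, a log2 ratio of means of 0.67. Complex III was at 1141, 936 and 1180 CPM in mutants and 725, 741 and 723 CPM in WT (log2 ratio 0.57), and complex IV at 2462, 2066 and 2388 CPM in mutants and 1574, 1593 and 1558 CPM in WT (log2 ratio 0.55). For both, mutant 2 was the lowest mutant and still stood clear of the highest WT library. Complex I stood at 3494, 2603 and 3235 CPM in mutants and 2216, 2271 and 2243 CPM in WT (log2 ratio 0.47). Complex II, with 512, 532 and 712 CPM in mutants and 426, 447 and 457 CPM in WT, had the smallest ratio in CPM (log2 0.40), though complex I was smaller as TPM (0.76 for complex I against 0.79 for complex II) and without mutant 1 (0.38 against 0.49), and its mutant 3 lay apart from the other two. The makeup of the set shifted little: complex V supplied 36.1 ± 2.04% of its counts in mutants and 33.6 ± 0.276% in WT, and complex I 28.0 ± 1.79% in mutants and 29.8 ± 0.134% in WT (SD, n = 3 each).

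**Figure D1:**
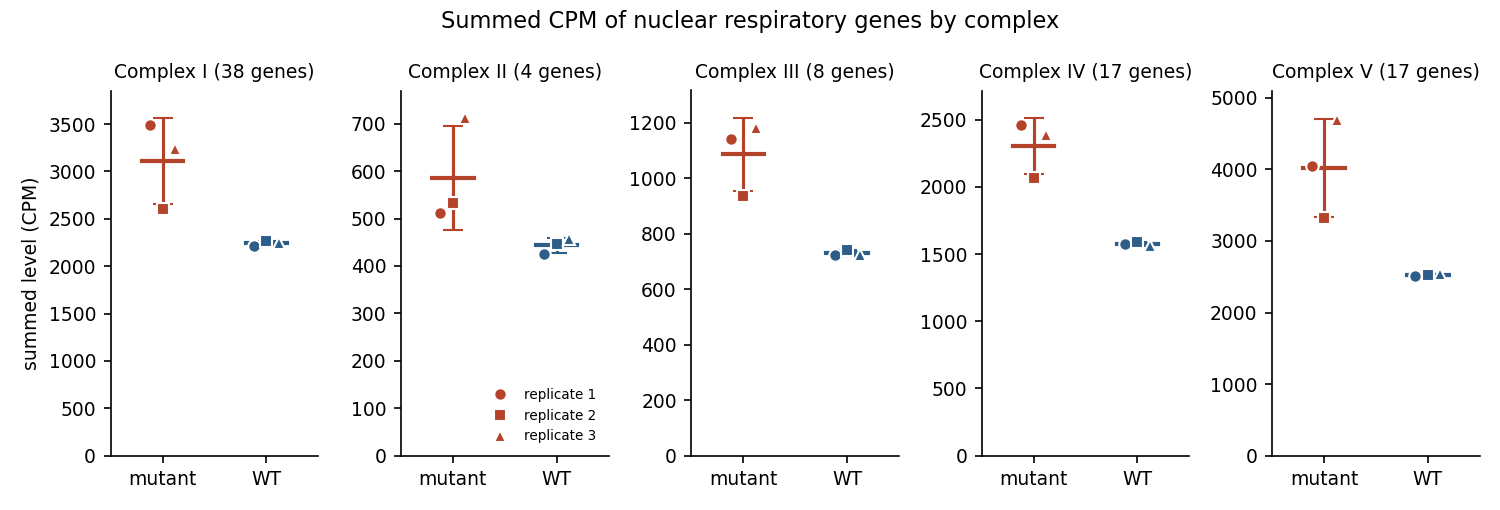
Summed level of the genes of each respiratory complex in CPM (vertical axes, each starting at 0) in mutant and WT spleens, with 1 point per animal, the mean as a horizontal line and the SD as a bar. All 3 mutant points lie above all 3 WT points in every complex, from 3327 to 4692 CPM in mutants against 2512 to 2542 CPM in WT for complex V.

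Gene by gene, 82 of the 84 had enough counts to be tested. By edgeR's quasi-likelihood test, adjusted over all genes and called under 0.05, 23 of 82 rose in mutants and 0 fell. Of all 19573 genes tested, 5.08% rose and 6.90% fell. The fitted log2 fold change, mutant over WT, was above 0 in 79 genes and below 0 in 3, with a median of 0.57 against 0.10 over all genes tested. All mutants lay above all WT libraries in 60 of the 82, an arrangement that 18.0% of all tested genes showed, and all mutants lay below in 0 of 82, against 22.6% of all tested genes. In a gene that passed the test, such a gap comes from the same libraries as its call and is no separate support. A further 19 genes had adjusted p from 0.0521 to 0.0985, and 54 of the 82 had an unadjusted p under 0.05. The shares of all tested genes within these limits are not given here, so how far these counts exceed them is not known.

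The count of 23 depended on single libraries. Without mutant 2 it was 51 (13.6% of all tested genes then rose), without mutant 3 it was 14, which included 12 of the 23 (4.28% of all tested genes then rose), and without WT 1, 2 or 3 it was 0, when 0.0294, 0.0195 and 0.0392% of all tested genes rose. In those 3 fits 34, 35 and 27 of the genes had an unadjusted p under 0.05, all of them higher in mutants. The matching shares of all tested genes are not given here, so these counts lack a background. DESeq2 called 36 higher, of which 23 were the edgeR calls, with 10.3% of its 23687 genes higher. Over 15 alternatives, each of the 23 lost its call in 3 to 9, and Atp5o, Cox6b2, Ndufa10, Ndufc2, Sdhc and Uqcr11 lost it in those 3 alone that leave out a WT library. Of the 84 genes, 13 had over 20% of their 50-base stretches in other genes, 4 of them among the 23.

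**Figure D2:**
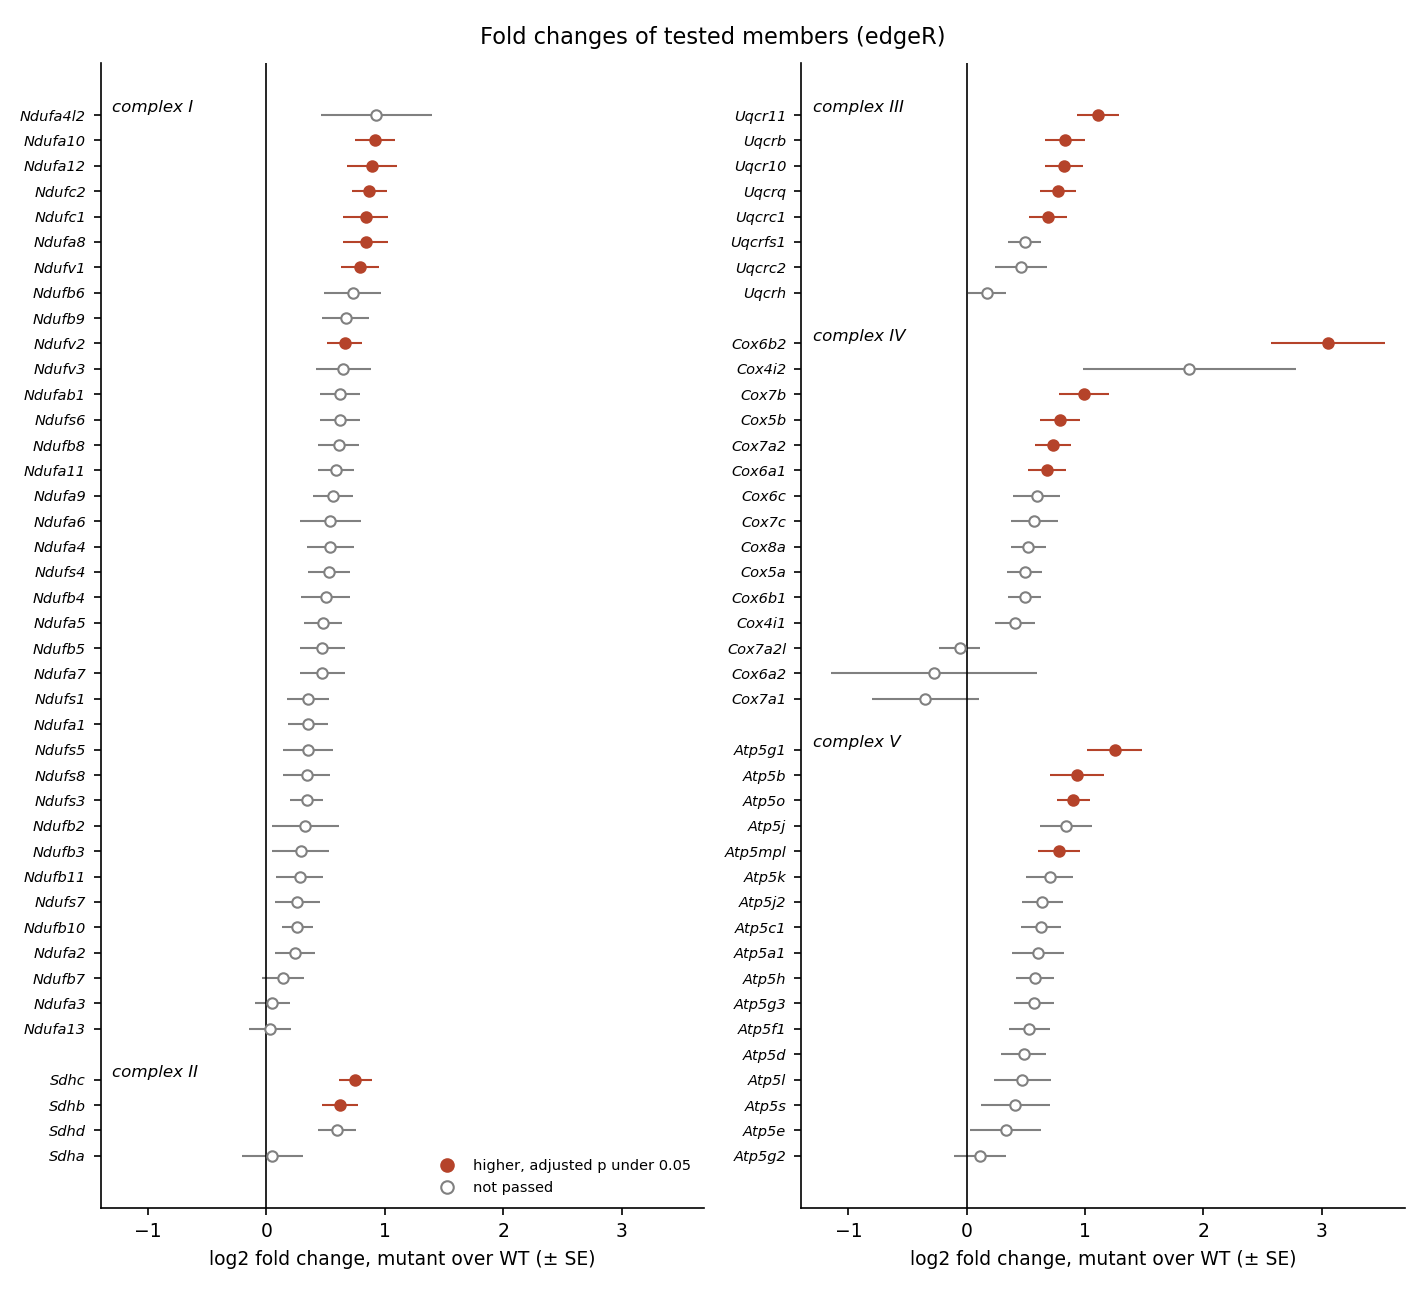
Log2 fold change of mutant over WT (horizontal axis) with its SE for the tested genes, 1 of which is not drawn, ordered within each complex. Filled points mark the 23 genes with an adjusted p under 0.05, and 3 genes, all of complex IV, lie left of 0.

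The level of the 82 tested genes differed from one mutant to another. Relative to the WT mean, the median gene stood at log2 0.68 in mutant 1, 0.36 in mutant 2 and 0.61 in mutant 3. Mutant 1 held the highest mutant level of 52 genes, mutant 3 that of 27 and mutant 2 that of 3, while mutant 2 held the lowest of 63. Mutant 2 was also the mutant with the largest share of haemoglobin and the highest summed cell cycle level, 4662 CPM. Mki67, Pcna, Mcm2, Rrm2, Ccnb1 and Cdk1 were highest among mutants in mutant 2, while Mcm5, Mcm6 and Tyms were lowest there. Whether these levels bear on the respiratory genes was not tested. The median coefficient of variation over the 82 genes was 18.1% in mutants and 3.05% in WT, against 44.2% in mutants and 11.3% in WT over all tested genes. For 81 of the 82 genes the mutants varied more than WT.

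In complex I, 7 of 38 genes rose (18.4%, against 5.08% of all tested genes), and the median log2 fold change was 0.52. The pair that forms its NADH-oxidising tip both rose. Ndufv1, the subunit that binds NADH and the flavin, was at 131, 121 and 159 CPM in mutants and 75.3, 84.6 and 77.7 CPM in WT. Ndufv2, an iron-sulphur partner of Ndufv1, was at 162, 124 and 153 CPM in mutants and 91.3, 95.0 and 91.8 CPM in WT. In both genes the groups did not overlap, with log2 fold changes of 0.79 ± 0.16 (SE, adjusted p = 0.0294) and 0.66 ± 0.15 (SE, adjusted p = 0.0413). The other 5 are accessory subunits, which surround the catalytic core. Ndufa10 was at 169, 122 and 167 CPM in mutants and 84.4, 80.6 and 77.2 CPM in WT (log2 fold change 0.92 ± 0.17, SE, adjusted p = 0.0245). Ndufc2 was at 105, 83.8 and 94.6 CPM in mutants and 52.2, 53.0 and 50.6 CPM in WT (log2 fold change 0.87 ± 0.15, SE, adjusted p = 0.0210). Ndufa8, Ndufa12 and Ndufc1 rose by 0.84 to 0.89 on the log2 scale, with adjusted p of 0.0419, 0.0451 and 0.0434, and none of these 5 had overlapping groups. Ndufa8 lost its call in 8 of 15 alternatives and Ndufa12 and Ndufc1 in 9 each, among them upper-quartile scaling, no scaling and every gene with a count. Of the transcript of Ndufa12, 26.2% matches another gene in stretches of 50 bases, which leaves its reads uncertain.

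Other complex I subunits did not pass. Ndufs1, an iron-sulphur subunit of the NADH arm, was at 68.6, 76.1 and 99.2 CPM in mutants and 65.6, 62.6 and 64.0 CPM in WT, where the groups just separated (log2 fold change 0.35, adjusted p = 0.235). Ndufa13, an accessory subunit also known as GRIM-19, was at 101, 67.0 and 76.0 CPM in mutants and 79.2, 81.5 and 79.9 CPM in WT. Only its mutant 1 exceeded WT (log2 fold change 0.03, adjusted p = 0.937), and 30.0% of its exon bases lie under an exon of Tssk6 on the opposite strand. The lowest and highest fold changes of the complex were those of Ndufa13 and of Ndufa4l2, at 0.03 and 0.93, and all 38 were above 0.

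X-linked genes were read beside the difference in sex. Ndufa1, an accessory subunit, was at 46.0, 34.1 and 41.7 CPM in mutants and 31.4, 32.5 and 32.1 CPM in WT (log2 fold change 0.35, adjusted p = 0.211), and Ndufb11, another, at 158, 94.2 and 139 CPM in mutants and 107, 110 and 104 CPM in WT (log2 fold change 0.28, adjusted p = 0.379). Neither passed. Cox7b of complex IV was at 157, 89.4 and 132 CPM in mutants and 66.2, 61.2 and 62.5 CPM in WT, with no overlap, and it rose by 0.99 ± 0.21 on the log2 scale (SE, adjusted p = 0.0352). In all 3 genes mutant 3, the only mutant with WT-like Xist, lay between mutants 1 and 2. What part sex had in these levels was not tested.

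Complex II showed an uneven pattern among its 4 subunits. The iron-sulphur subunit Sdhb was at 113, 108 and 134 CPM in mutants and 73.0, 79.4 and 79.6 CPM in WT. Sdhc, a membrane anchor, was at 143, 150 and 154 CPM in mutants and 87.3, 90.7 and 90.2 CPM in WT. Neither gene's groups overlapped, and both rose (log2 fold changes 0.62 ± 0.15 and 0.75 ± 0.14, SE, adjusted p = 0.0451 and 0.0272). Sdhd, the other anchor, was at 99.7, 85.6 and 123 CPM in mutants and 66.0, 70.1 and 67.1 CPM in WT, also without overlap (log2 fold change 0.60, adjusted p = 0.0642). Sdha, the flavoprotein that oxidises succinate, did not follow them, at 157, 189 and 301 CPM in mutants and 200, 207 and 220 CPM in WT. Its mutants 1 and 2 lay below every WT library and its mutant 3 above, for a log2 fold change of 0.05 ± 0.26 (SE, adjusted p = 0.917), whose sign turned without mutant 3 (-0.23) and with upper-quartile scaling (-0.06).

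In complex III 5 of 8 genes rose, the highest share of the 5 complexes at 62.5%, against 5.08% of all tested genes. The median log2 fold change was 0.73. Uqcr11, a small subunit, was at 93.4, 65.0 and 87.1 CPM in mutants and 37.6, 40.5 and 35.9 CPM in WT. The lowest mutant stood well above the highest WT library, and the gene rose by 1.11 ± 0.18 on the log2 scale (SE, adjusted p = 0.0179). Uqcrc1, a large core protein, was at 280, 238 and 315 CPM in mutants and 170, 176 and 172 CPM in WT (log2 fold change 0.69 ± 0.16, SE, adjusted p = 0.0437). The small subunits Uqcr10, Uqcrb and Uqcrq rose by 0.77 to 0.83 on the log2 scale, with adjusted p of 0.0299, 0.0326 and 0.0299 and no overlap between groups. Of Uqcrb, 43.2% matches other genes in stretches of 50 bases. Uqcrh, the hinge protein that helps cytochrome c to dock, was at 241, 193 and 259 CPM in mutants and 206, 212 and 200 CPM in WT, with mutant 2 below all WT libraries (log2 fold change 0.17, adjusted p = 0.531). Uqcrfs1, the Rieske iron-sulphur protein, was at 93.6, 100 and 107 CPM in mutants and 71.0, 72.4 and 71.8 CPM in WT, without overlap (log2 fold change 0.49, adjusted p = 0.0756).

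In complex IV 5 of the 15 tested genes rose (33.3%, against 5.08% of all tested genes), with a median log2 fold change of 0.57. The ubiquitous subunits Cox5b, Cox6a1 and Cox7a2 rose by 0.68 to 0.79 on the log2 scale (adjusted p of 0.0356, 0.0480 and 0.0319). Cox5b was at 220, 162 and 181 CPM in mutants and 108, 115 and 105 CPM in WT, and 25.9% of its 50-base stretches occur in another gene. Cox6a1 was at 248, 266 and 302 CPM in mutants and 174, 174 and 164 CPM in WT, and Cox7a2 at 93.4, 80.3 and 82.0 CPM in mutants and 54.2, 50.5 and 50.4 CPM in WT. None of the 3 overlapped between groups. Cox6a1 lost its call in 9 of 15 alternatives, among them upper-quartile scaling, no scaling and the fit without haemoglobin and immunoglobulin genes. Cox4i1, the common form of subunit 4, was at 422, 410 and 391 CPM in mutants and 307, 318 and 304 CPM in WT, without overlap (log2 fold change 0.41, adjusted p = 0.159). Cox7a2l, which helps complexes III and IV to associate rather than acting as a catalytic part, was at 233, 191 and 271 CPM in mutants and 230, 237 and 260 CPM in WT, with overlapping groups (log2 fold change -0.06, adjusted p = 0.834). Ndufa4 is placed with complex I by its symbol, although structural work assigns its protein to complex IV. Counting Ndufa4 and Ndufa4l2 there, a choice made after seeing the data, left the log2 ratios of both sums at 0.47 for complex I and 0.55 for complex IV.

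Several complex IV subunits exist as a common and a tissue-restricted isoform, and among these Cox6b2 stood out. Known as the testis form of subunit 6b, it was at 61.2, 76.9 and 167 CPM in mutants and 13.6, 14.9 and 7.86 CPM in WT, or 102 ± 57.3 CPM against 12.1 ± 3.76 CPM (SD, n = 3 each). The lowest mutant was well above the highest WT library and mutant 3 was the highest. Its log2 fold change of 3.05 ± 0.48 (SE, adjusted p = 0.0171) was the largest of the 82. Its common partner Cox6b1 was at 170, 156 and 182 CPM in mutants and 120, 126 and 119 CPM in WT, also without overlap but by 0.49 ± 0.14 on the log2 scale (SE, adjusted p = 0.0778). Per kilobase of transcript, Cox6b2 made up 27.5, 34.2 and 49.2% of the 2 isoforms in mutants and 10.7, 11.1 and 6.54% in WT, 37.0 ± 11.1% against 9.46 ± 2.53% (SD, n = 3 each).

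The other restricted isoforms stayed minor in all libraries. Cox4i2, the form best known from lung and oxygen-dependent regulation, was at 7.82, 10.9 and 0.821 CPM in mutants and 1.39, 2.03 and 2.06 CPM in WT. Mutants 1 and 2 were above WT and mutant 3 below, so the log2 fold change of 1.88 ± 0.90 (SE) did not pass (adjusted p = 0.210). Without mutant 3 it was 2.41 and passed. Per kilobase, Cox4i2 made up at most 2.70% of the Cox4i pair in mutants and 0.702% in WT. Cox6a2 and Cox7a1, the forms of heart and skeletal muscle, averaged 0.714 ± 0.728% and 1.36 ± 0.481% of their pairs in mutants against 1.43 ± 0.299% and 2.82 ± 0.515% in WT (SD, n = 3 each), with overlapping CPM values. Ndufa4l2 was at 4.86, 3.28 and 1.75 CPM in mutants and 1.69, 1.66 and 1.91 CPM in WT, and its mutant 3 lay within the WT range (log2 fold change 0.93, adjusted p = 0.232). Cox8b, a muscle form, had 1, 0 and 0 counts in mutants and 7, 17 and 2 counts in WT, and Cox8c, a testis form, had 0, 0 and 1 counts in mutants and 0 in all WT libraries. These 2 genes fell under the expression filter and were not tested, whereas Cox8a was at 263, 213 and 244 CPM in mutants and 172, 167 and 164 CPM in WT (log2 fold change 0.52, adjusted p = 0.0785).

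**Figure D3:**
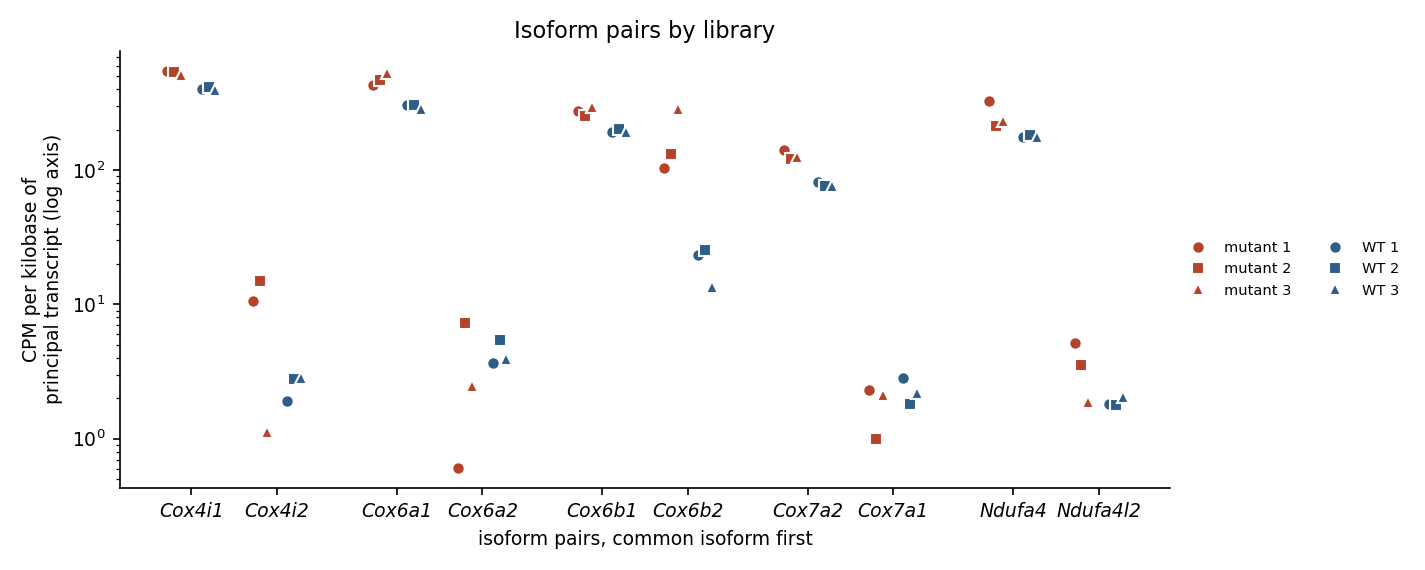
Levels of 5 isoform pairs in CPM per kilobase of principal transcript (log axis), 1 symbol per library, with mutants left of WT for each gene and the common isoform left of the restricted one. Cox6b2 lies at 105, 131 and 286 CPM per kilobase in mutants and 23.3, 25.5 and 13.4 in WT, closer to its partner Cox6b1 in mutants.

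The promoters of the 2 subunit 6b genes are shown because these isoforms differed most in fold change within a pair. The sequences are RefSeq windows on GRCm38.p6 from 250 bases before to 50 bases after the annotated start, both on the minus strand, Cox6b2 at chr7:4753045-4753344 and Cox6b1 at chr7:30626065-30626364. Capitals mark matches to the core motif of ETS factors such as GABP (CCGGAAG) or of NRF1 (GCATGCGC), searched on both strands.

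Cox6b2: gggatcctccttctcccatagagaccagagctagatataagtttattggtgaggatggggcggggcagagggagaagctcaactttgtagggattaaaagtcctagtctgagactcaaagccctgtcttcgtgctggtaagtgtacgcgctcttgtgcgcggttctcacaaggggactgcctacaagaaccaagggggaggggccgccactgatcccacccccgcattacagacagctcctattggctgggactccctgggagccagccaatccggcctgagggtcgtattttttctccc

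Cox6b1: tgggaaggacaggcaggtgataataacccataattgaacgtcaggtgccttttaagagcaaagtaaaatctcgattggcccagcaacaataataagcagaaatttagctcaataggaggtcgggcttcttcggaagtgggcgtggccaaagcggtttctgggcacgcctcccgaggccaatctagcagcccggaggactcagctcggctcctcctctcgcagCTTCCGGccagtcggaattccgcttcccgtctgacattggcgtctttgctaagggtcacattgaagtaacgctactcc

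The Cox6b1 window held 1 ETS core at position -28 relative to the start, and the Cox6b2 window held neither motif. Each held 3 copies of CCAAT or its reverse complement.

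In complex V 4 of 17 genes rose (23.5%, against 5.08% of all tested genes), with a median log2 fold change of 0.60. Atp5b, the catalytic beta subunit, was at 753, 831 and 1184 CPM in mutants and 483, 482 and 490 CPM in WT. Mutant 3 was the highest and the groups were far apart, with a log2 fold change of 0.93 ± 0.23 (SE, adjusted p = 0.0496). This call was lost with upper-quartile or no scaling, without haemoglobin and immunoglobulin genes and without mutant 3. Its alpha partner Atp5a1, at 772, 729 and 1105 CPM in mutants and 571, 570 and 585 CPM in WT, also did not overlap but did not pass (log2 fold change 0.60 ± 0.22, SE, adjusted p = 0.122). Atp5o, the stalk protein that confers oligomycin sensitivity, was at 147, 119 and 145 CPM in mutants and 76.1, 72.7 and 73.3 CPM in WT (log2 fold change 0.90 ± 0.14, SE, adjusted p = 0.0182). Of Atp5o, 35.6% of exon bases lie under an exon on the opposite strand and 35.5% of 50-base stretches occur in other genes, so its reads are uncertain. Atp5mpl, a small membrane protein bound to the synthase, rose by 0.78 ± 0.18 on the log2 scale (SE, adjusted p = 0.0410). Atp5e, the epsilon subunit of the rotor, was at 184, 74.5 and 142 CPM in mutants and 104, 104 and 110 CPM in WT, with mutant 2 below and mutants 1 and 3 above WT (log2 fold change 0.33, adjusted p = 0.506). Atp5s, named with the family but not a subunit of the enzyme, had overlapping groups (log2 fold change 0.41, adjusted p = 0.369).

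The membrane ring of the synthase is built from copies of subunit c, and Atp5g1, Atp5g2 and Atp5g3 encode the same mature protein behind different import sequences. Of the 3, Atp5g1 passed the test. Atp5g1 was at 180, 97.0 and 157 CPM in mutants and 59.1, 64.0 and 59.4 CPM in WT. Even mutant 2 stood above all WT libraries, and Atp5g1 rose by 1.25 ± 0.23 on the log2 scale (SE, adjusted p = 0.0259). Atp5g3 lay between 231 and 296 CPM in mutants and between 169 and 190 CPM in WT, without overlap (log2 fold change 0.57 ± 0.17, SE, adjusted p = 0.0769). Atp5g2 was at 111, 65.8 and 121 CPM in mutants and 88.8, 93.7 and 92.5 CPM in WT, with mutant 2 below WT and the other two above (log2 fold change 0.11 ± 0.22, SE, adjusted p = 0.763). Of Atp5g2, 87.4% of 50-base stretches also occur in 2 other genes, so its counts are uncertain. The differences between the 3 genes were not tested.

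Their promoters are shown to set the gene that passed beside its 2 relatives, from the same RefSeq windows, all on the minus strand: Atp5g1 at chr11:96075582-96075881, Atp5g2 at chr15:102670998-102671297 and Atp5g3 at chr2:73911277-73911576. Uqcr11 at chr10:80406772-80407071, also on the minus strand, is added because it rose most in complex III and holds both motifs. Capitals mark the NRF1 and ETS cores as above.

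Atp5g1: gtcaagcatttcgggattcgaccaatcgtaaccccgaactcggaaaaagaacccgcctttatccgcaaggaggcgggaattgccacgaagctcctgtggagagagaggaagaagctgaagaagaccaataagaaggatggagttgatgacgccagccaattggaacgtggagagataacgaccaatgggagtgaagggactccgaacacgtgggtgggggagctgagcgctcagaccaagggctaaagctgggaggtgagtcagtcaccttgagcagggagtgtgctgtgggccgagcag

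Atp5g2: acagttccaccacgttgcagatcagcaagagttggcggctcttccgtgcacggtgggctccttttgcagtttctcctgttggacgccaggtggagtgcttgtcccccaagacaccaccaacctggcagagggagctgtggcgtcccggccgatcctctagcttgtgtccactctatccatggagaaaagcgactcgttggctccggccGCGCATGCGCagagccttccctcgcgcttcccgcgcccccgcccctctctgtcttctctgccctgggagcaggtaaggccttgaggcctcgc

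Atp5g3: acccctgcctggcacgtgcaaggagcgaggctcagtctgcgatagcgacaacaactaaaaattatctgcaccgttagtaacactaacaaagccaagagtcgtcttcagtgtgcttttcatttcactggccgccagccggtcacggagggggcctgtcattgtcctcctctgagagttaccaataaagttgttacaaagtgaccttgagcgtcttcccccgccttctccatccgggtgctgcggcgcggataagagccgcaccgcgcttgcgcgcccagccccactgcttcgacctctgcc

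Uqcr11: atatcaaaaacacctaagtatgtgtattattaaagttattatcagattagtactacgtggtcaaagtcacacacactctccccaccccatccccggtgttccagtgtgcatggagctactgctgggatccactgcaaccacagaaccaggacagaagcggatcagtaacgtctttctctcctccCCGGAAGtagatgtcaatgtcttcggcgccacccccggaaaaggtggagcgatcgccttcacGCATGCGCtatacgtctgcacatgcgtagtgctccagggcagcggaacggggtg

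Of the 3 subunit c genes, Atp5g2 alone carried an NRF1 core, in a stretch that reads the same on both strands. This stretch gave 2 overlapping matches, 1 per strand, that begin at -42 and -40. The RefSeq start of Atp5g2 lies 1305 bases from the GENCODE start. Atp5g1 had 5 copies of CCAAT and Atp5g3 had 1. Uqcr11 carried an ETS core at -66 and an NRF1 core at -4. A window was found for 66 of the 84 genes. The NRF1 core occurred in 10 of the 66 (15.2%), against 4.94% of 11675 tested genes with a window, and the ETS core in 15 (22.7%), against 16.5%. The core of YY1 (AAGATGGC) occurred in 8 (12.1%), against 4.20%, and CCAAT in 28 (42.4%), against 38.3%. No YY1 core overlapped an ETS core in these genes. Among those that rose, 5 of 19 windows held the NRF1 core and 3 of 19 the ETS core, and among the other tested genes 5 of 46 held the NRF1 core and 12 of 46 the ETS core. These matches describe the letters of the windows.

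Genes that act on the complexes without being subunits were counted in the same fit. Of 17 tested complex I assembly factors 0 rose and 1 fell, and the list median was 0.21 (log2 fold change). The gene that fell was Tmem126b, an assembly factor of the membrane arm, at 15.4, 17.2 and 16.4 CPM in mutants and 30.1, 27.7 and 31.2 CPM in WT (log2 fold change -0.85 ± 0.18, SE, adjusted p = 0.0355). Its groups were wide apart, opposite to the subunits. None of 4 complex II and 6 complex III assembly factors passed, with medians of 0.06 and 0.21, although Uqcc2, a complex III factor chosen here after its values were seen, was at 60.1, 29.2 and 56.7 CPM in mutants and 24.3, 24.0 and 22.4 CPM in WT (log2 fold change 1.04, adjusted p = 0.0621). Of 20 complex IV factors 1 rose, with a median of 0.29. That gene was Cmc2, at 77.6, 30.1 and 59.8 CPM in mutants and 18.7, 17.6 and 14.1 CPM in WT (log2 fold change 1.72 ± 0.35, SE, adjusted p = 0.0322). These shares, at most 5% of a list higher, may be read beside 5.08% of all tested genes. The 1 of 17 that fell may be read beside 6.90% of all tested genes lower. The list medians may be read beside 0.57 for the subunits and 0.10 for all tested genes.

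Atpif1, the protein that blocks ATP hydrolysis by the synthase, rose about as far as Cmc2. It was at 254, 191 and 189 CPM in mutants and 68.0, 72.1 and 53.6 CPM in WT. Every mutant was far above every WT library, with a log2 fold change of 1.71 ± 0.22 (SE, adjusted p = 0.0107). It was the 1 gene of 5 in its list to pass (20%, against 5.08% of all tested genes higher). The list, which also holds assembly factors such as Atpaf1 and Atpaf2, had a median of 0.73.

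Electron carriers and the enzymes of ubiquinone synthesis had 2 of 19 tested genes higher (10.5%, against 5.08% of all tested genes) and 0 lower. Their median was 0.49. Cycs, somatic cytochrome c, was at 63.9, 40.7 and 49.1 CPM in mutants and 27.6, 25.9 and 27.4 CPM in WT, without overlap (log2 fold change 0.93 ± 0.20, SE, adjusted p = 0.0352). Etfa, which passes electrons from fatty acid oxidation to ubiquinone, rose by 0.70 ± 0.16 on the log2 scale (SE, adjusted p = 0.0402). Cyc1, the cytochrome c1 of complex III, which the symbol rule leaves out, was at 113, 107 and 127 CPM in mutants and 83.4, 79.4 and 76.6 CPM in WT (log2 fold change 0.55, adjusted p = 0.0602). The tricarboxylic acid cycle, which supplies NADH and succinate, had 2 of 13 genes higher (15.4%, against 5.08%) and 0 lower. Its median was 0.49. Idh3a, the catalytic subunit of NAD-dependent isocitrate dehydrogenase, was at 114, 64.1 and 91.7 CPM in mutants and 37.0, 39.3 and 34.0 CPM in WT (log2 fold change 1.29 ± 0.23, SE, adjusted p = 0.0225). Dld, a dehydrogenase shared by several oxoacid complexes, rose by 0.63 ± 0.15 on the log2 scale (SE, adjusted p = 0.0490). Over 15 alternatives Dld lost its call in 9, Etfa in 8, Cycs in 4 and Idh3a in 3.

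Among 18 transcriptional regulators of mitochondrial biogenesis 0 were higher and 1 was lower, beside 5.08% and 6.90% of all tested genes. Their median log2 fold change was 0.03. Ppargc1a, which encodes the coactivator PGC-1alpha, was nearly absent from the mutants, with 0, 4 and 2 counts in mutants and 141, 136 and 203 counts in WT (0, 0.0538 and 0.0261 CPM against 1.91, 1.75 and 2.56 CPM). The groups were far apart at a low level, and the log2 fold change was -6.16 ± 0.92 (SE, adjusted p = 0.0158). Its relative Ppargc1b was at 2.39, 4.92 and 7.93 CPM in mutants and 3.49, 4.52 and 4.33 CPM in WT and did not pass (adjusted p = 0.699). Esrra, a nuclear receptor that works with PGC-1alpha on respiratory genes, was at 22.5, 25.8 and 21.2 CPM in mutants and 37.5, 36.6 and 38.9 CPM in WT, all mutants below WT (log2 fold change -0.68, adjusted p = 0.0648). Nrf1, at 56.9, 73.3 and 63.8 CPM in mutants and 55.6, 60.2 and 57.2 CPM in WT, and Gabpa, at 42.6, 43.4 and 49.6 CPM in mutants and 41.4, 36.6 and 42.1 CPM in WT, encode factors that bind the motifs shown above (adjusted p = 0.535 and 0.461). Tfam, which packages and transcribes mitochondrial DNA, was at 51.7, 32.4 and 66.1 CPM in mutants and 67.7, 66.9 and 70.7 CPM in WT (log2 fold change -0.46, adjusted p = 0.258), with all mutants below WT.

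**Figure D4:**
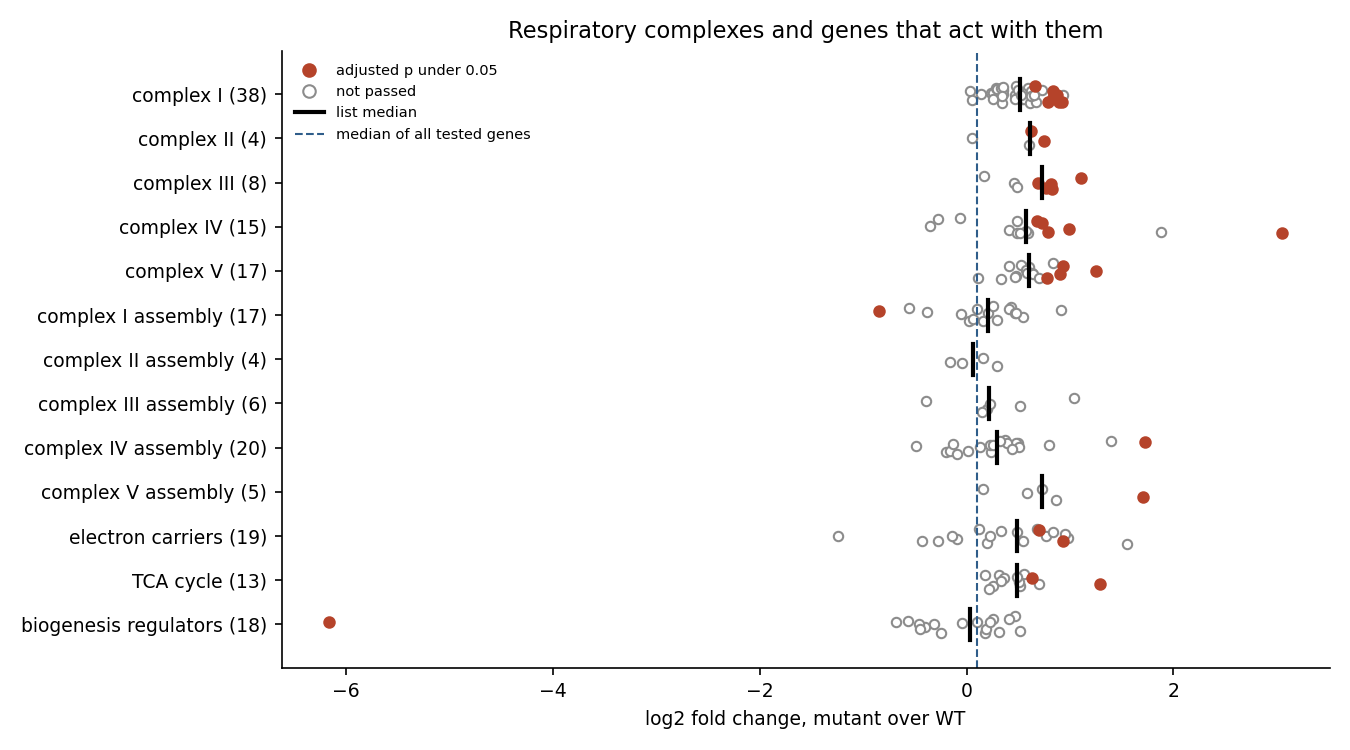
Log2 fold change of mutant over WT (horizontal axis) for each tested gene of the 5 complexes and of 8 lists that act with them, with list medians as black bars and the median of all tested genes, 0.10, as a dashed line. Complex medians lie between 0.52 and 0.73, assembly factor medians of complexes I to IV between 0.06 and 0.29, and Ppargc1a lies at -6.16.

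The mitochondrial ribosome, which translates the subunits encoded in mitochondrial DNA, gave a second set of nuclear genes for the same organelle. Of its 77 genes 8 were higher (10.4%, against 5.08% of all tested genes) and 0 lower, at a median log2 fold change of 0.49. In 39 of 77 all mutants lay above all WT libraries, as they did in 18.0% of all tested genes. Their summed level was 4163, 2542 and 3825 CPM in mutants and 2449, 2480 and 2480 CPM in WT. As for the respiratory genes, mutant 2 was the lowest mutant, here just above WT. The difference between these 77 genes and the respiratory genes was not tested.

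Outside the pathway, 2 single genes were read as checks. Pi4ka, a lipid kinase gene, was at 82.9, 92.5 and 108 CPM in mutants and 108, 119 and 130 CPM in WT (adjusted p = 0.238), and Cdh5, whose promoter drives Cre, at 44.1, 42.6 and 164 CPM in mutants and 38.9, 41.4 and 44.6 CPM in WT (adjusted p = 0.260). Neither passed, and in Cdh5 mutant 3 was far above the rest.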

How the data were processed

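The authors deposited whole-number counts per Ensembl gene, not normalized, for 3 mutant and 3 WT spleens. Per the labels' protocols, a stranded poly-A kit was used on 50 ng of RNA. The submitters' processing notes list STAR 2.5.3a, limma, mm10 and GRCm38 with no role. No source used here gives the annotation release, whether counting used strand, or how reads shared between genes were treated, and each could move the counts of overlapping or duplicated genes. Each column matched 1 sample, and 0 columns were left without one. Symbols, coordinates and transcripts came from GENCODE M21 (GRCm38), which named 31669 of 31771 identifiers, and promoters from RefSeq (GRCm38.p6), which matched 66 genes by symbol.

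CPM were computed from library totals. All genes were fitted with edgeR 4.0.16 in R 4.3.3 (TMM factors, expression filter by group, robust quasi-likelihood test, no covariate), with Benjamini-Hochberg adjustment at 0.05. SE is the fitted log2 fold change over the root of F. DESeq2 1.42.0 and limma 3.58.1 served as alternatives, as did other scalings and filters and leaving out each library. The fit was tested on simulated data with the same spread in both groups. That test cannot show how the fit behaves when mutants vary more than WT, as they do here. Transcripts were cut into stretches of 50 bases and matched to those of other genes. As a check for a library deposited under more than 1 name, counts were compared within groups, and no pair agreed within sampling noise. Precision rests on 3 animals per group.

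Members and lists were chosen with earlier results of these data known. Named genes are members past the threshold, the member with the highest CPM in each complex, isoform pairs, X-linked members, up to 3 passing genes per list, and a set of carriers and regulators with Pi4ka and Cdh5. Xist, Ddx3y, Ndufa13, Ndufs1, Sdhd, Uqcrfs1, Uqcrh, Cox7a2l, Atp5e, Atp5s and Uqcc2 were named after their values were seen. The values of 1 gene are not reported here.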

Additional observations from a re-analysis of the deposited data

How the results depend on the processing

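The median log2 fold change of the respiratory genes minus that of all tested genes lay between 0.40 and 0.59 in every setting, and 0 genes fell in any. The median of all tested genes itself moved to 0.00 with upper-quartile factors, -0.02 with limma-voom and 0.18 with DESeq2, against 0.10. The count of 23 higher, with 5.08% of all tested genes higher, was 8 with upper-quartile factors (3.78%), 14 without a scaling factor (4.51%), 36 with DESeq2 (10.3%), 12 by limma-voom with separate variances per group (3.71%, added after seeing the data) and 14 over every gene with a count (2.46%), and ranged from 0 to 51 with 1 library left out. Of the 23, DESeq2 and limma-voom called all 23. As TPM the log2 ratios of summed levels were 0.76, 0.79, 0.93, 0.88 and 0.95 for complexes I to V, where haemoglobin took 0.617 to 18.3% of mutant TPM and up to 31.3% of WT TPM. Without haemoglobin and immunoglobulin genes complex IV was at 0.39. With 1 library left out, signs turned for Atp5g2 (-0.02 to 0.31) and Ppargc1b (-0.11 to 0.66), negative without mutant 3, for Cox6a2 (-1.53 to 0.23), positive without mutant 1, and for Sdha (-0.23 to 0.25), negative without mutant 3. Sdha was also at -0.06 with upper-quartile factors and just under 0 (0.00) by limma-voom with a joint or a separate variance. Over 15 alternatives for each of 54 named and tested genes, 617 of 810 results kept their sign and side of the threshold, 168 lost the call, 18 gained one and 7 turned sign. The causes were not tested. No paired analysis was possible because replicate numbers only name the animals. Libraries held at least 72902118 counts, so for most genes the number of animals limits precision more than depth does, while Ppargc1a, Cox8b and Cox8c rest on few counts.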
